A study of Mus musculus with 12 samples.

Results

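The collagen chain genes of mouse embryonic fibroblasts were followed through loss of Vps15 and through short starvation in EBSS. They were taken as every gene of the expression table whose symbol has the form Col, a type number, the letter a and a chain number. This gave 44 genes of 32721 in the table. By assembly, 11 encode fibrillar chains, 6 encode the type IV chains of basement membranes and 27 encode other collagens. A gene entered the tests when its mean over all 12 libraries lay at least 1 log2 unit above the lowest value of the table. Of the 44 genes, 33 passed: 10 fibrillar, 5 type IV and 18 others.

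The study measured polyadenylated RNA by paired-end sequencing in 4 groups of 3 libraries. All cells carried the floxed Vps15f/f alleles and all received an adenovirus. Cells given adeno-GFP served as WT, and cells given adeno-CRE, in which the recombinase can excise the floxed segment of the gene for VPS15 (Pik3r4), are called Vps15KO. After 5 days of transduction, each genotype was either kept in basal medium or moved to EBSS, a salt solution without amino acids, for 2 h. The groups are therefore WT basal, Vps15KO basal, WT EBSS and Vps15KO EBSS.

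Before treatment the cells stood at 90% confluence in DMEM with high glucose (4.5 g/L) and 10% FBS. EBSS without additions lacks serum as well as amino acids, so the contributions of each cannot be told apart. The effect of Cre itself cannot be told apart from that of Vps15 loss, because the control virus carried GFP. The library names contain pLEX, which no label explains. No label says whether the fibroblasts are 1 clone or whether the replicates come from separate cultures, so p-values measure the spread between these libraries, which may be technical.

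Collagens are proteins of 3 chains wound into a triple helix, which needs glycine at a fixed, repeating position along each chain. Fibrillar chains have a long unbroken helix, assemble into cross-striated fibres outside the cell and make up most of the matrix that fibroblasts secrete. Type IV chains have a helix broken by many interruptions and form the flexible sheets of basement membranes. Other collagens form beaded filaments, coat the surface of fibrils, build short-chain networks, anchor epithelia or span the cell membrane. VPS15 is the regulatory subunit of the class III phosphatidylinositol 3-kinase, the lipid kinase complex of autophagy and endosomal sorting.

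Coding exons from the helix are shown for 4 fibrillar chains and for the 2 abundant type IV chains, because the classes used below differ in this repeat. Capitals mark codons that begin with GG, which encode glycine. Each is a whole exon, read 5′ to 3′ on the coding strand from GENCODE M21 on mm10.
Col1a1 exon 8, chr11:94939904-94939957, plus strand: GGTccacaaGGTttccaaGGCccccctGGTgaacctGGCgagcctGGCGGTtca
Col1a2 exon 8, chr6:4515481-4515534, plus strand: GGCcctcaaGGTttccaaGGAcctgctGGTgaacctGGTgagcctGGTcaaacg
Col3a1 exon 6, chr1:45325360-45325413, plus strand: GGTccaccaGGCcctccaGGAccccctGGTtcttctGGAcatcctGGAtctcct
Col5a2 exon 6, chr1:45434892-45434945, minus strand: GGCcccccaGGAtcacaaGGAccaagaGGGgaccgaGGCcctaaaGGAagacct
Col4a1 exon 9, chr8:11244486-11244569, minus strand: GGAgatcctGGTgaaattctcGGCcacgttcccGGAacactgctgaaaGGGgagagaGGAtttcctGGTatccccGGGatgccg
Col4a2 exon 8, chr8:11402163-11402234, plus strand: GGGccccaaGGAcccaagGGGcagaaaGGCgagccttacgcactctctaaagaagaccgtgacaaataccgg

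The exons were picked to show this contrast. For each fibrillar chain the first whole 54-base exon with an unbroken repeat was taken. For each type IV chain the first short in-frame exon with a break that follows an unbroken one was taken. By this choice the 4 fibrillar exons are 54 bases long and carry a glycine codon at the start of every 9 bases. In the 84 bases of Col4a1 exon 9 and the 72 bases of Col4a2 exon 8 the spacing breaks. Over whole coding exons, 48.6% of the 627 exons of fibrillar genes measured 54 bases. The share was 4.23% of the 284 exons of type IV genes and 15.0% of the 1011 exons of the other collagens. A length that was a multiple of 9 bases was found in 83.9%, 47.2% and 55.8%, in the same order. The longest run of glycine-led triplets had a median of 338 triplets in fibrillar genes, 43.5 in type IV genes and 45 in the others.

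Pik3r4 (chr9:105642995-105687655, RefSeq GRCm38.p6), the targeted gene, had normalized read counts of 864, 879 and 884 in WT basal, 633, 700 and 640 in Vps15KO basal, 959, 891 and 834 in WT EBSS and 623, 602 and 672 in Vps15KO EBSS. Every Vps15KO library lay below every WT library, at 75.1% of WT in basal medium and 70.7% in EBSS (limma with Benjamini-Hochberg adjustment, adjusted p = 8.4e-05 and 1.0e-05). The excised exons are not named in the labels, and counts over the whole gene do not show how many cells recombined.

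Libraries held 21278921 to 21698584 reads in genes. Replicate 2 of WT basal stood apart from its 2 partners, with a chi-square per gene of 20.0 and 19.1 against 3.03 between the partners. Replicate 1 of WT EBSS did so less, with 7.73 and 11.1 against 3.65. Of 8 fibroblast markers, Vim, Fn1 and S100a4 were abundant and Thy1 was nearly absent, at 0.679 to 2.06 normalized counts by group. Their sum ran from 297597 to 317372 in WT basal and from 189069 to 199618 in Vps15KO basal, and from 280474 to 283428 in WT EBSS and 208162 to 217118 in Vps15KO EBSS. Sums of skeletal muscle, epithelial and endothelial markers were at most 26.5 in any library. Summed osteoblast markers, mostly Runx2, ran from 898 to 1037 in WT basal and 1164 to 1292 in Vps15KO basal. In EBSS they ran from 772 to 817 in WT and 1391 to 1474 in Vps15KO. Members of that list went in different directions. Runx2 averaged 800 in WT basal and 1149 in Vps15KO basal, and 665 and 1368 in EBSS. Dmp1 averaged 154 and 56.4 in basal medium, and 127 and 50.9 in EBSS, and the rest had few counts. Summed neural markers, mostly Map2, lay between 534 and 741 in all libraries.

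The interstitial fibrillar chains had the highest levels among the collagens. In WT basal the mean normalized count per kilobase of transcript was 19138 for Col1a2, 18374 for Col3a1 and 13567 for Col1a1, and the next chain, Col6a1, had 4949. Lengths are from the GENCODE M21 transcript of longest coding sequence. Over all 12 libraries, Vps15KO included, the mean per kilobase was 13206 for Col1a2, 10930 for Col3a1 and 7658 for Col1a1. Col6a1, a chain of the type VI beaded filament, followed at 3690 and Col4a1 at 2114. Col5a2 (1550), Col8a1 (1462), Col4a2 (1343), Col5a1 (1253), Col6a2 (1250) and Col6a3 (1207) lay close together, and Col16a1, Col4a5, Col18a1, Col11a1, Col12a1, Col10a1 and Col20a1 ran from 607 down to 127 counts per kilobase. The other 15 chains that passed the filter lay at or below 22.1, down to 1.06 for Col4a4.

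**Figure D1:**
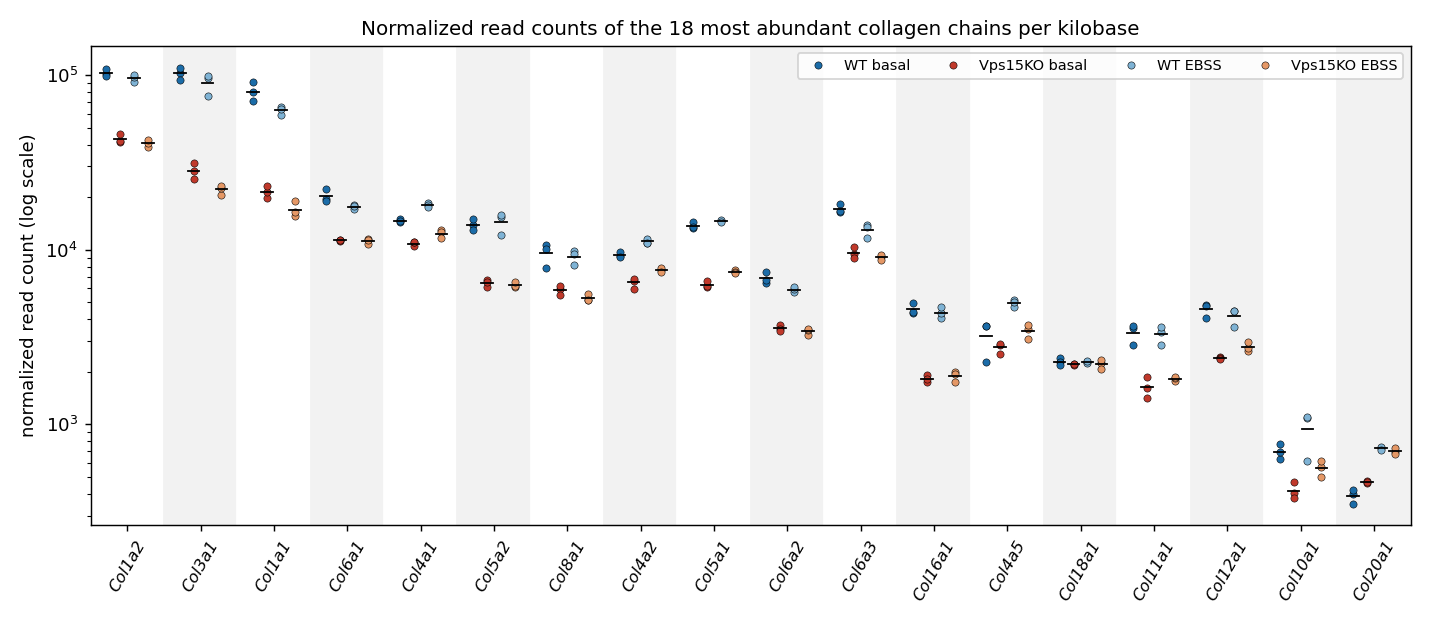
Normalized read counts (log axis) of the 18 collagen chains with the most counts per kilobase, ordered from left to right by that level. Points are single libraries, 3 per group, and short lines are group means. For Col1a1, Col1a2 and Col3a1 all Vps15KO points lie below all WT points, while the 4 groups of Col18a1 coincide.

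The 11 chains under the filter had few or no reads over the 12 libraries together. Col4a6 had 49 reads, Col24a1 37, Col6a4 30, Col9a2 11, Col13a1 9, Col22a1 7, Col6a5 4, Col26a1 3 and Col9a1 2. Col6a6 and Col19a1 had 0, which allows up to 3 reads over all libraries, by counting error only. Col6a6 lies 1762 bases from Pik3r4 and was at 0 with and without Cre. Just inside the filter were Col14a1 with 98 reads and Col4a4 with 128.

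Loss of Vps15 in basal medium lowered most of the collagen genes that the cells express at a high level. Of 33 chains tested, 19 fell and 5 rose (limma on the deposited log2 values, Benjamini-Hochberg adjusted p under 0.05), while over all 14279 genes tested 29.2% fell and 29.3% rose. The median log2 difference of the 33 chains was -0.51, beside -0.01 over all genes tested. Differences are on the variance-stabilized log2 scale, which compresses changes of genes with few reads, so percentages of WT are ratios of mean normalized counts. In bulk RNA, fewer cells of a type and less RNA per cell cannot be told apart.

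Summed over all chains, collagen genes took 1.86%, 1.81% and 1.99% of the reads in the WT basal libraries and 0.781%, 0.761% and 0.813% in the Vps15KO basal libraries. The fibrillar share was 1.45 ± 0.085% (SD, n = 3) in WT basal and 0.510 ± 0.025% in Vps15KO basal. The type IV share was 0.125 ± 0.0069% and 0.0955 ± 0.0035%, and that of the other collagens 0.306 ± 0.0027% and 0.180 ± 0.0012%. None of these groups of libraries overlapped. An exact permutation test of 3 against 3 libraries cannot go below p = 0.1 (two-sided), which each of these comparisons reached.

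**Figure D2:**
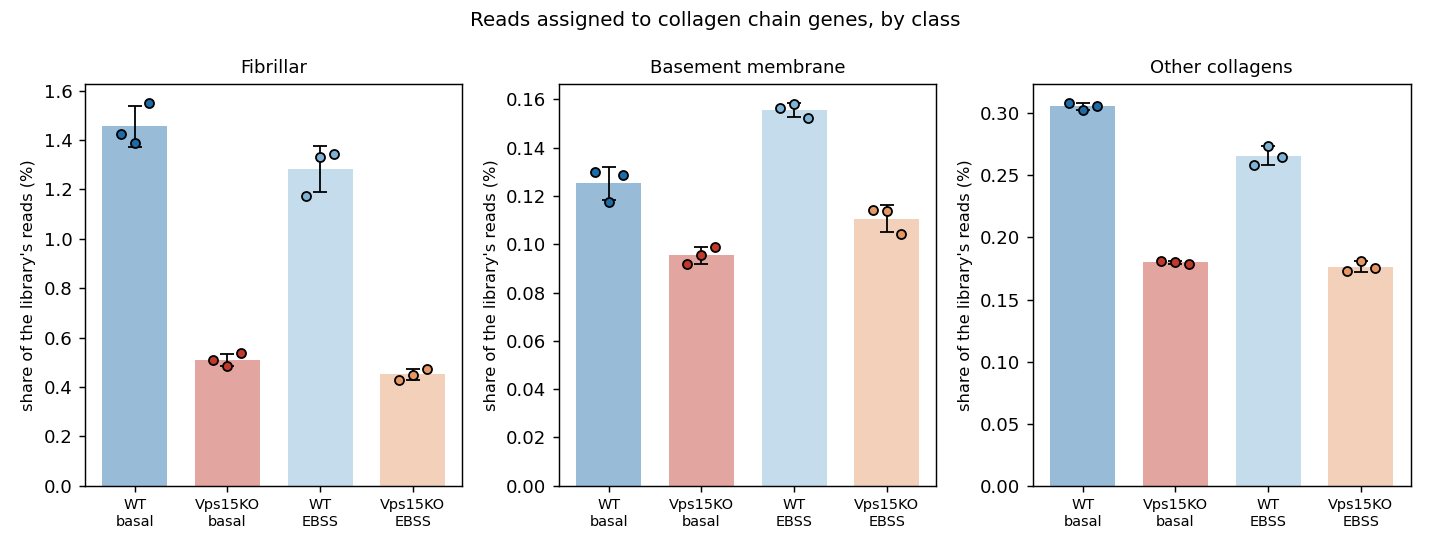
Share of each library's reads (%) assigned to fibrillar, basement membrane (type IV) and other collagen genes. Bars are means of 3 libraries, error bars are SD and points are libraries. The fibrillar share falls from 1.45% to 0.510% between WT and Vps15KO in basal medium, and in the basement membrane panel both EBSS groups lie above the basal group of the same genotype.

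Among the fibrillar chains, 7 of 10 fell, 2 rose and the median log2 difference was -1.09. Col1a1 (chr11:94936224-94953042), which encodes the α1 chain of type I collagen, had 70881, 90837 and 79636 normalized counts in WT basal and 19828, 21440 and 23320 in Vps15KO basal. The lowest WT library was well above the highest Vps15KO library. The mean fell to 26.8% of WT, a log2 difference of -1.90 ± 0.09 (SE), with an adjusted p of 1.3e-11 by limma.

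Col3a1 (chr1:45311538-45349706), the single chain of type III collagen, which shares fibrils with type I, had 103078, 93391 and 110232 counts in WT basal and 31332, 25304 and 28394 in Vps15KO basal. It stood at 27.7% of WT (-1.85 ± 0.10). Col1a2 (chr6:4505618-4541543), the α2 chain of type I collagen, had 100854, 98215 and 107979 counts against 41569, 41743 and 45819. It fell less, to 42.1% of WT (-1.25 ± 0.07). Type I collagen is built from both Col1 genes, and their ratio is given below.

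Type V collagen sits inside type I fibrils and limits their diameter. Col5a1 had 13322, 14461 and 13423 counts in WT basal and 6114, 6223 and 6596 in Vps15KO basal, and Col5a2 had 13894, 12968 and 14956 against 6691, 6132 and 6498. These chains of the common type V trimer fell alike, to 45.9% and 46.2% of WT. Col11a1, the type XI relative of Col5a1, was at 48.7% (-1.03 ± 0.10), and the sparse Col27a1 at 34.7% (-1.07 ± 0.16).

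Of the other 3 fibrillar genes, 2 rose. Col5a3, a minor type V chain, had 69.1, 88.9 and 82.0 counts in WT basal and 92.8, 102 and 106 in Vps15KO basal, a rise of 0.26 ± 0.10 (adjusted p = 0.037 by limma). Col11a2, a type XI chain of cartilage, had 43.1, 45.5 and 46.0 against 69.3, 72.5 and 57.9, a rise of 0.40 ± 0.12 (adjusted p = 0.0076). The groups did not overlap for either gene, but the rise of Col5a3 missed the threshold in 4 of the 12 fits that each left out 1 library. Col2a1, the cartilage fibril chain, did not pass the test (0.15 ± 0.14).

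Of the type IV chains, 2 of 5 fell and none rose, with a median of -0.18. Col4a1, the α1 chain of nearly all basement membranes, had 14976, 14483 and 14541 counts in WT basal and 10491, 11003 and 11037 in Vps15KO basal. Its partner Col4a2 had 9238, 9657 and 9135 against 5996, 6653 and 6832. These chains fell to 73.9% (-0.43 ± 0.06) and 69.5% (-0.52 ± 0.06) of WT, with no overlap between groups.

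Col4a5, an X-linked chain of other type IV networks, had 3654, 2282 and 3655 counts in WT basal and 2858, 2542 and 2888 in Vps15KO basal. Its WT spread was set by replicate 2, the library that stood apart. With all libraries its difference was -0.18 ± 0.13 (adjusted p = 0.24 by limma), and without that library it was -0.40 ± 0.07 (adjusted p = 2.2e-05). Over the 25 alternative settings its adjusted p ran from 3.6e-06 to 0.69.

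Col4a3 and Col4a4, which form a trimer with Col4a5 in kidney glomeruli, were scarce in these fibroblasts. Col4a3 had 14.0, 9.53 and 16.0 counts in WT basal and 13.7, 17.6 and 12.7 in Vps15KO basal. Col4a4 had 7.01, 12.7 and 17.0 against 10.7, 9.80 and 9.81. The groups overlapped for both, and neither passed the test.

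Among the other collagens, 10 of 18 fell and 3 rose, with a median of -0.46. All 3 type VI chains that passed the filter fell. Type VI collagen forms beaded microfilaments around cells. Col6a1 had 19542, 22206 and 19121 counts in WT basal and 11266, 11329 and 11409 in Vps15KO basal. Col6a2 had 6473, 7474 and 6682 against 3698, 3501 and 3435. Col6a3 had 16518, 18166 and 16594 against 9454, 10367 and 8998. The 3 chains fell to a similar degree, to 55.9%, 51.5% and 56.2% of WT, and no library of either genotype overlapped with the other.

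The fibril-associated collagens, which bind to the surface of fibrils, split. Col16a1 had 4369, 4925 and 4372 counts in WT basal and 1904, 1756 and 1826 in Vps15KO basal, 40.1% of WT and a log2 difference of -1.30 ± 0.07. Col12a1 had 4818, 4068 and 4769 against 2423, 2396 and 2355, or 52.5% (-0.92 ± 0.08). Col20a1 went the other way, from 397, 351 and 419 to 463, 473 and 465 (0.25 ± 0.07, adjusted p = 0.0055 by limma). Col9a3, a type IX chain, also rose (0.38 ± 0.15, adjusted p = 0.037), but lost its call in 4 of the 12 fits that each left out 1 library. Col14a1 did not pass.

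The short-chain network genes all fell. Col8a1, a type VIII chain of vessel and eye matrix, had 10663, 7860 and 10114 counts in WT basal and 5967, 5500 and 6228 in Vps15KO basal (61.8% of WT). Its scarce partner Col8a2 had 13.0, 23.3 and 14.0 against 8.79, 5.88 and 5.88 (40.9%). Col10a1, the chain of hypertrophic cartilage, had 774, 630 and 693 against 465, 402 and 378 (59.4%).

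Col18a1, a multiplexin of basement membrane zones whose end fragment is endostatin, was the abundant chain that moved least. It had 2383, 2263 and 2178 counts in WT basal and 2225, 2183 and 2211 in Vps15KO basal, a difference of -0.04 ± 0.06. The transmembrane Col17a1 and Col23a1 fell (33.0% and 55.0% of WT), while the transmembrane Col25a1 passed as higher with overlapping groups, at 9.02, 4.23 and 13.0 against 23.4, 12.7 and 20.6. Without WT basal replicate 2 Col25a1 was no longer called. The anchoring fibril chain Col7a1 did not pass (0.10 ± 0.10).

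**Figure D3:**
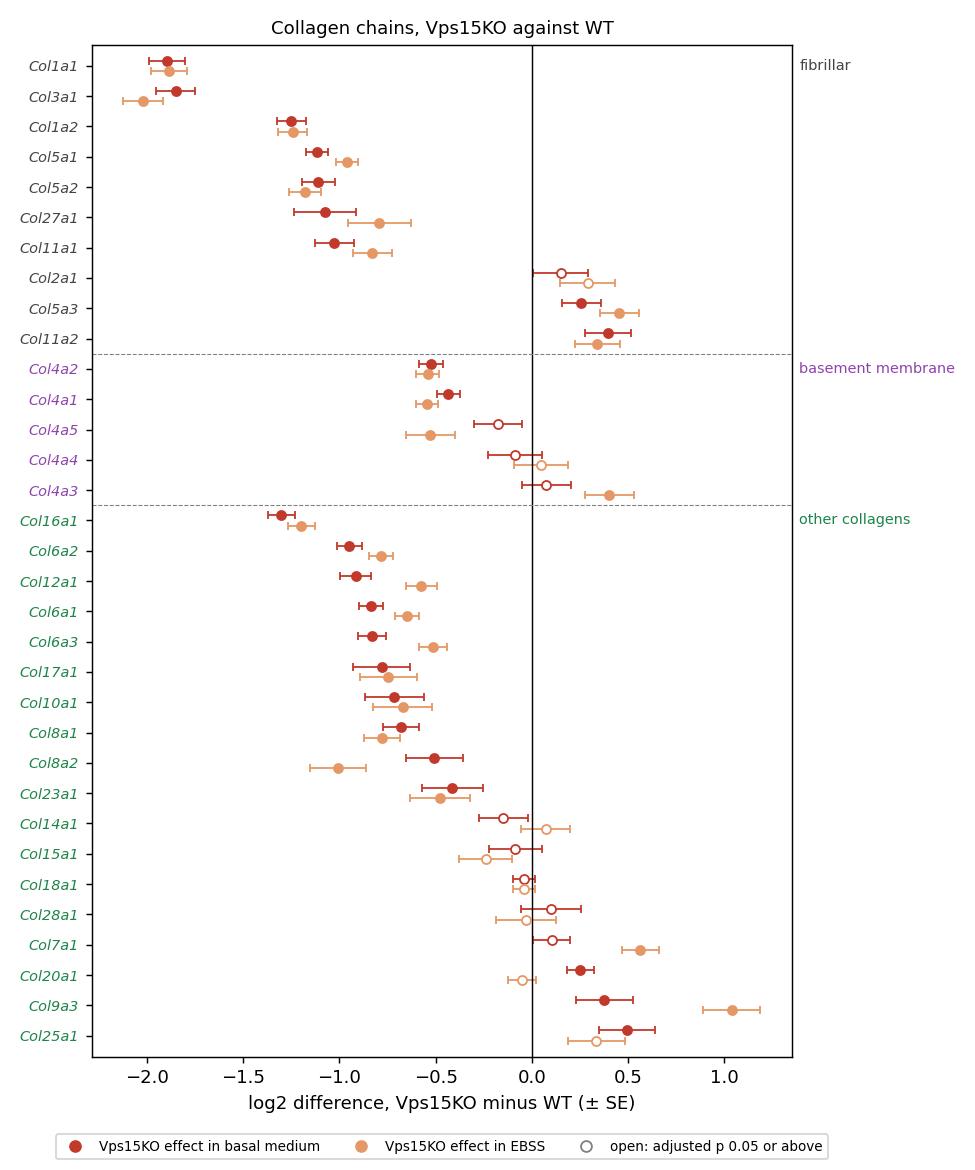
Log2 difference between Vps15KO and WT (± SE, x axis) for each of the 33 tested collagen chains, grouped by class and ordered by the basal difference. Dark red points are basal medium, orange points are EBSS, and open points did not pass an adjusted p of 0.05. Col1a1 and Col3a1 lie near -2 in both media, the type IV chains lie to the right of the abundant fibrillar chains.

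In EBSS the genotypes differed in much the same way. Of the 33 chains, 20 were lower and 5 were higher in Vps15KO, beside 27.8% lower and 29.4% higher over all genes tested. Fibrillar chains had 7 lower and 2 higher of 10 (median -0.90), type IV chains 3 lower and 1 higher of 5 (median -0.53), and the others 10 lower and 2 higher of 18 (median -0.50). The median over all genes was 0.00. The basal and EBSS comparisons share no library, and across the 33 chains their log2 differences had a Pearson r of 0.94 and the same sign in 29. Over all 14279 genes r was 0.80. These are correlations across genes, which are not independent replicates.

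Col1a1 had 58946, 65426 and 63767 counts in WT EBSS and 15622, 16353 and 18917 in Vps15KO EBSS, 27.0% of WT (-1.89 ± 0.09). Col3a1 had 75776, 96676 and 99070 against 20625, 22565 and 23318, 24.5% of WT (-2.02 ± 0.10). Col1a2 had 91790, 97650 and 99787 against 38829, 40705 and 42540, 42.2% of WT (-1.24 ± 0.07). As in basal medium, the α1 chain of type I and the type III chain fell further than the α2 chain of type I, with no overlap between genotypes.

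Col5a1 had 14617, 14856 and 14350 counts in WT EBSS and 7627, 7501 and 7319 in Vps15KO EBSS (51.2%). Col5a2 had 12068, 15330 and 15782 against 6094, 6224 and 6573 (43.7%), and Col16a1 had 4064, 4314 and 4711 against 1984, 1933 and 1737 (43.2%). The low WT value of Col5a2 and that of Col3a1 both came from replicate 1 of WT EBSS. Col8a2 had 40.3, 30.5 and 42.8 against 9.83, 5.92 and 12.8, 25.2% of WT (-1.01 ± 0.15).

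Of the 5 type IV chains, Col4a1, Col4a2 and Col4a5 were lower in Vps15KO in EBSS, and none passed the test of the difference between media. Col4a1 had 18401, 18136 and 17653 counts in WT EBSS and 12924, 12584 and 11607 in Vps15KO EBSS (68.5%). Col4a2 had 10994, 11552 and 10912 against 7695, 7856 and 7406 (68.6%). Col4a5 had 4693, 5128 and 5042 against 3523, 3684 and 3099 (69.3%, adjusted p = 0.0015 by limma). These 3 chains stood at nearly the same percentage of WT. Col4a3 was higher in Vps15KO, at 31.2, 24.4 and 25.5 against 37.4, 50.3 and 40.5 (0.40 ± 0.13, adjusted p = 0.012).

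Type VI chains stood at 63.7% (Col6a1), 57.9% (Col6a2) and 69.7% (Col6a3) of WT, Col12a1 at 66.6%, Col8a1 at 58.0% and Col10a1 at 59.9%. Col18a1 again did not differ beyond its error (-0.04 ± 0.06). The chains that were higher in Vps15KO by limma were Col9a3 (1.04 ± 0.15), Col7a1 (0.56 ± 0.10), Col5a3 (0.45 ± 0.10), Col4a3 and Col11a2 (0.34 ± 0.12). Of these, Col11a2 lost its call in 3 and Col4a3 in 1 of the 12 fits that left out a library. Of the chains called lower, 18 of 19 in basal medium and 19 of 20 in EBSS were also called lower in each of the 25 alternative settings that tested them. Col23a1 was the exception in both media.

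Fall and abundance went together among the collagens. Splitting at a mean log2 value of 11, chosen after the values were seen, gave 16 abundant chains, of which 14 fell and 0 rose in basal medium and 15 fell and 0 rose in EBSS. Of the other 17 chains, 5 fell and 5 rose in each medium. Among all genes at or above the same level, 34.6% fell and 33.8% rose in basal medium, and 35.6% fell and 29.9% rose in EBSS. Among all genes under it, 28.2% fell and 28.5% rose in basal medium, and 26.4% fell and 29.3% rose in EBSS. The 17 less abundant chains lay near those shares. The level of a chain in the EBSS libraries and its log2 difference in the basal libraries had a Spearman rho of -0.65 across the 33 chains and 0.06 across all genes tested. That is a description across genes, and the compression of low counts on this scale bears on it.

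Chains of the same protein did not always keep their ratio. Ratios of counts per kilobase, chosen after values were seen, rest on the transcript lengths used, which cancel between groups. The ratio of Col1a1 to Col1a2 was 0.634, 0.834 and 0.665 in WT basal and 0.430, 0.463 and 0.459 in Vps15KO basal. It was 0.579, 0.604 and 0.576 in WT EBSS and 0.363, 0.362 and 0.401 in Vps15KO EBSS. Every Vps15KO library lay below every WT library, and within each genotype every EBSS library lay below every basal library.

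The ratio of Col3a1 to Col1a2 was 0.959 ± 0.039 in WT basal, 0.634 ± 0.078 in Vps15KO basal, 0.900 ± 0.092 in WT EBSS and 0.523 ± 0.012 in Vps15KO EBSS (SD, n = 3). The genotypes did not overlap in either medium. In contrast, Col4a1 to Col4a2 was 1.53 ± 0.062, 1.63 ± 0.068, 1.58 ± 0.051 and 1.58 ± 0.056 in the same order, with overlap between the genotypes in both media. The ratio of Col6a1 to Col6a2 was 2.84 ± 0.078, 3.08 ± 0.14, 2.88 ± 0.055 and 3.17 ± 0.055. It was higher in Vps15KO, without overlap between the genotypes in either medium. The ratios of Col5a1 to Col5a2 and of Col6a1 to Col6a3 overlapped between the genotypes in both media.

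**Figure D4:**
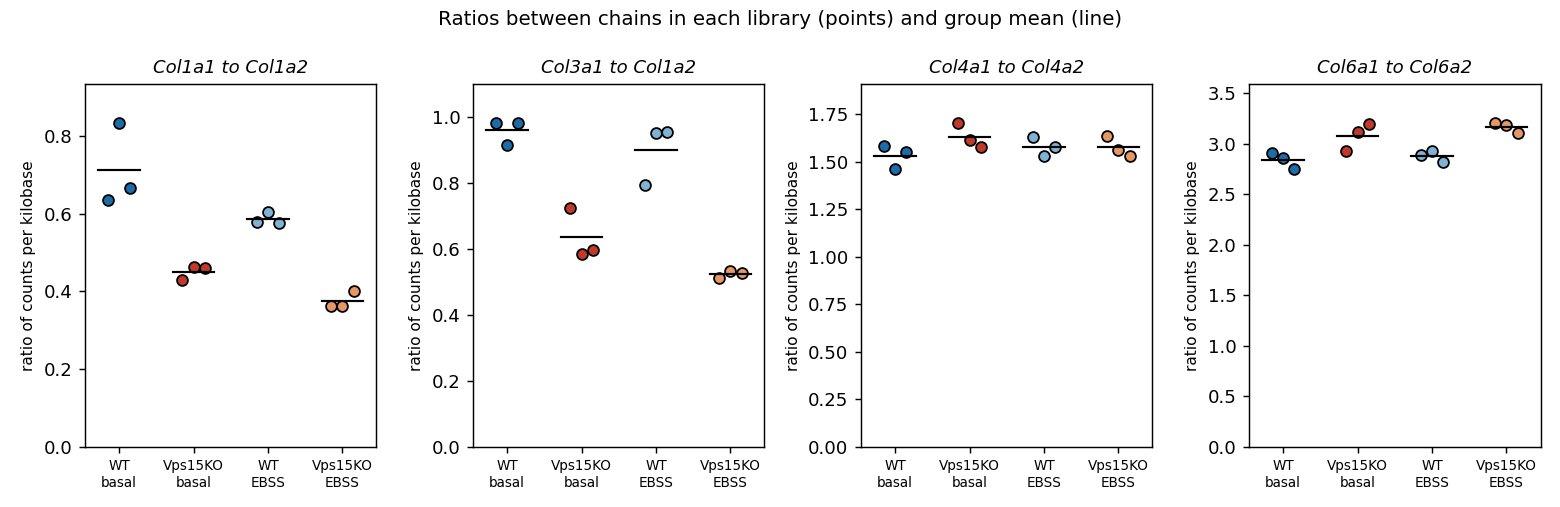
Ratio of normalized counts per kilobase between pairs of collagen chains (y axes start at 0) in each library (points) with group means (lines). The Col1a1 to Col1a2 and Col3a1 to Col1a2 ratios are lower in all Vps15KO libraries, while the Col4a1 to Col4a2 ratio stays between 1.46 and 1.71 in all 12.

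Starvation in EBSS for 2 h raised some collagen chains and lowered others in WT cells. Of the 33 chains, 10 rose and 5 fell, beside 31.4% that rose and 31.3% that fell over all genes tested. Type IV chains had 4 of 5 higher and none lower (median 0.30). Fibrillar chains had 1 higher and 1 lower of 10 (median 0.01), and the others 5 higher and 4 lower of 18 (median 0.19). The type IV share of reads was 0.156 ± 0.0030% in WT EBSS against 0.125 ± 0.0069% in WT basal, without overlap, while the fibrillar share was 1.28 ± 0.093% against 1.45 ± 0.085%.

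Within type IV, the mean of Col4a1 in WT EBSS was 123% of that in WT basal (0.30 ± 0.06, adjusted p = 0.00023 by limma), that of Col4a2 119% (0.25 ± 0.06) and that of Col4a5 155% (0.66 ± 0.13). The scarce Col4a3 rose to 205% (0.52 ± 0.13). Col4a4 had 8.05, 8.14 and 13.3 counts in WT EBSS, within its basal range. All 4 chains that rose had EBSS libraries above every basal library.

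Col11a2 (chr17:34038919-34066684) had the largest rise of any collagen in WT cells, from 43.1, 45.5 and 46.0 counts to 192, 133 and 152, or 355% (1.39 ± 0.12, adjusted p = 1.1e-08 by limma). Col20a1 rose from 397, 351 and 419 to 730, 741 and 712, or 187% (0.86 ± 0.07). Col8a2 rose to 226% (0.66 ± 0.15). Col9a3, Col28a1 and Col10a1 also passed, but each lost its call without replicate 2 of WT basal. Over the 12 fits that each left out 1 library, Col10a1 lost its call in 10, Col28a1 in 4 and Col9a3 in 2. For Col10a1 the groups overlapped, with 619, 1086 and 1102 counts in WT EBSS.

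Beside these rises, the summed chondrocyte markers ran from 644 to 751 normalized counts in WT basal, 3005 to 3233 in WT EBSS, 861 to 976 in Vps15KO basal and 3461 to 3588 in Vps15KO EBSS. Almost all of the increase was Sox9, a transcription factor of cartilage, with mean counts of 513 in WT basal and 2940 in WT EBSS. Matn1 was at 0 in every library and the mean of Acan did not pass 1.30 in any group. Col2a1, the main cartilage collagen, did not pass the test with EBSS in either genotype. The part of these markers in the rise of Col11a2 and Col9a3 was not tested.

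The falls in WT EBSS were small. Col6a3 had 13934, 13424 and 11720 counts, 76.2% of WT basal (-0.39 ± 0.07), and Col6a1 and Col6a2 stood at 87.0% and 85.9%. Col1a1 stood at 78.0% (-0.35 ± 0.09, adjusted p = 0.0031 by limma) and Col7a1 at 75.5%. Col1a2 (94.2%) and Col3a1 (88.5%) did not pass. Without both libraries that stood apart, Col6a1, Col6a2 and Col7a1 lost their calls and 2 chains were lower. Without WT basal replicate 2 alone 8 chains were lower, and with each library's trend with transcript length and GC content removed 10 were.

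In Vps15KO cells, EBSS raised 12 chains and lowered 2, beside 25.9% raised and 26.1% lowered over all genes tested. Type IV chains again had 4 of 5 higher (median 0.24), fibrillar chains 2 higher and 2 lower of 10 (median 0.13), and the others 6 higher and none lower of 18 (median 0.14). Col11a2 went from 69.3, 72.5 and 57.9 to 233, 192 and 196 (311%), Col9a3 from 20.5, 19.6 and 26.5 to 70.8, 60.2 and 85.9 (326%), and Col4a3 rose to 291%. Col14a1 went from 3.91, 5.88 and 3.92 to 9.83, 13.8 and 10.9. For all 4 genes every EBSS library was above every basal library.

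Col4a1 stood at 114% (0.19 ± 0.06), Col4a2 at 118% (0.24 ± 0.06) and Col4a5 at 124% (0.31 ± 0.13, adjusted p = 0.046 by limma). Col1a1 and Col3a1 fell to 78.8% and 78.2%. In the 12 fits that left out a library, the call of Col4a5 was lost in 8 and those of Col4a1 and Col3a1 in 1 each. Among the other chains called higher, Col17a1 lost its call in 7, Col12a1 in 5 and Col10a1 in 4. Several calls in this comparison changed with the length and GC trends removed, when 5 chains were higher and 7 lower. Col4a1, Col4a2, Col4a5, Col5a1, Col12a1, Col14a1 and Col17a1 were then no longer called higher. The type IV chains called higher were then 1 of 5 in Vps15KO and 4 of 5 in WT. In Vps15KO the calls of Col1a1, Col3a1, Col10a1, Col11a2, Col20a1, Col9a3 and Col4a3 held under that setting.

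**Figure D5:**
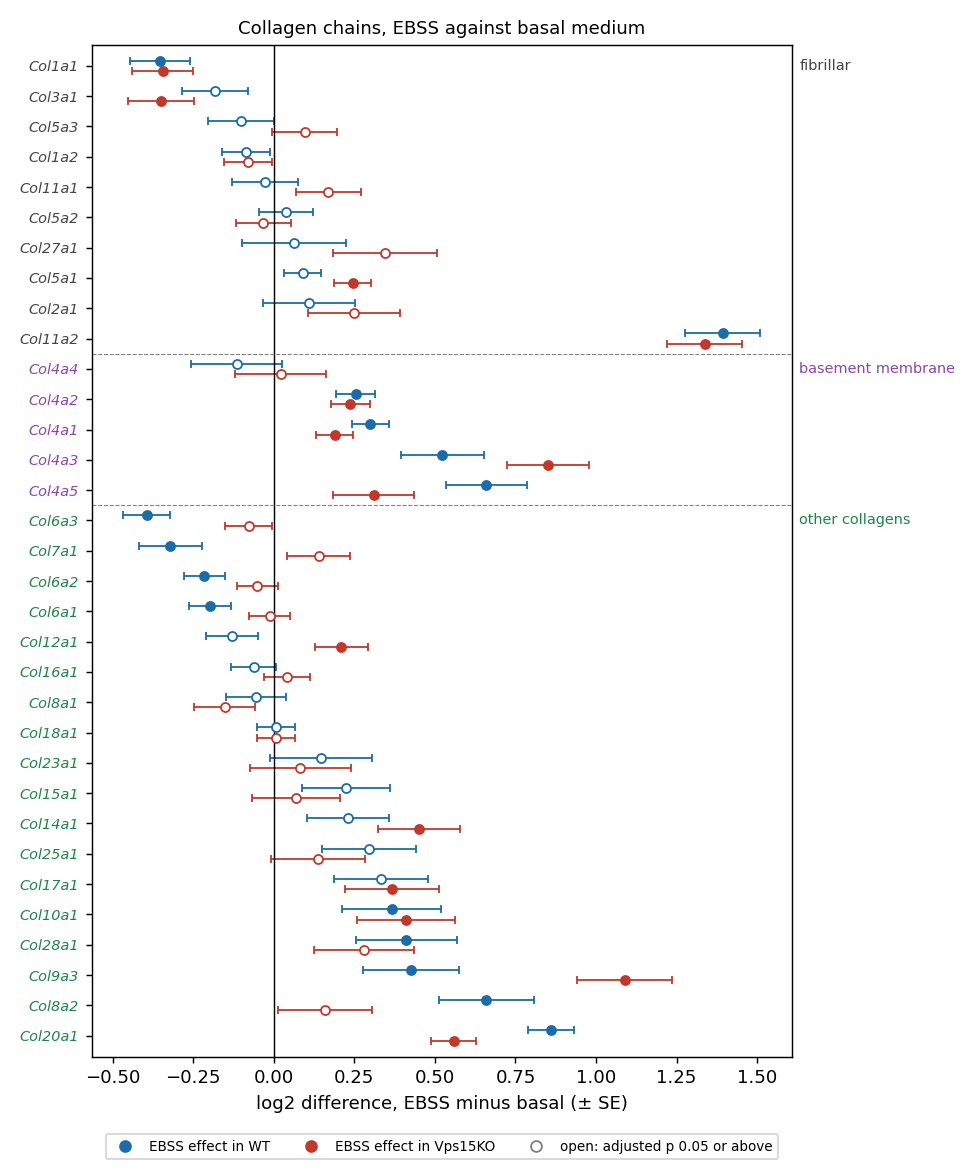
Log2 difference between EBSS and basal medium (± SE, x axis) for the 33 tested chains, grouped by class and ordered by the WT difference. Blue points are WT, red points are Vps15KO, and open points did not pass an adjusted p of 0.05. Col11a2 lies near 1.4 in both genotypes, 4 of 5 type IV chains lie above 0 in both, and most abundant fibrillar chains lie within 0.4 of 0.

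A minority of chains, as of all genes tested, answered EBSS differently in the 2 genotypes. The difference of the EBSS effect, Vps15KO minus WT, passed as higher for 4 chains and as lower for 1, beside 9.55% and 8.24% of all genes tested. Col9a3 rose more in Vps15KO (0.66 ± 0.21, adjusted p = 0.035 by limma). Col7a1, the anchoring fibril chain of skin, had 103, 131 and 115 counts in WT basal, 83.5, 92.6 and 87.7 in WT EBSS, 119, 136 and 125 in Vps15KO basal and 136, 146 and 144 in Vps15KO EBSS (0.46 ± 0.14, adjusted p = 0.026). It fell with EBSS in WT and did not pass in Vps15KO.

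Col6a3 fell in WT only by its own test, and its difference passed (0.32 ± 0.10, adjusted p = 0.041). Col12a1 had 3599, 4459 and 4430 counts in WT EBSS and 2631, 2743 and 2947 in Vps15KO EBSS (0.34 ± 0.11, adjusted p = 0.047 by limma). Col20a1 rose in both genotypes and less in Vps15KO (-0.30 ± 0.10, adjusted p = 0.044), where it reached 698, 729 and 676. None of these 5 calls held in every fit that left out 1 library. For Col1a1 the difference was 0.01 ± 0.13, for Col1a2 0.01 ± 0.11 and for Col4a2 -0.02 ± 0.09.

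Genes that make, export and process collagen changed in both directions with Vps15 loss, and their counts are set beside the 29.2% of all genes that fell and 29.3% that rose in basal medium, and the 27.8% lower and 29.4% higher in EBSS. Of 18 tested genes for chain modification and folding, 10 fell and 5 rose with Vps15 loss in basal medium, among them Fkbp14 (-0.96 ± 0.08), a folding enzyme of the endoplasmic reticulum, and P3h4 (-0.50 ± 0.05), which serves lysine hydroxylation. Tmem38b, an ion channel of the endoplasmic reticulum, was among those that rose (0.85 ± 0.09). In EBSS 11 were lower and 3 higher. Of 6 genes for propeptide cleavage, 4 were lower in Vps15KO in each medium and 1 was higher in EBSS. Those lower in basal medium included Bmp1 (-0.87 ± 0.06), the C-proteinase of procollagen, and Adamts2 (-0.76 ± 0.08), the N-proteinase. Of 5 lysyl oxidases, Loxl1 (-1.20 ± 0.06) and Lox (-0.94 ± 0.11) fell in basal medium and Loxl4 rose (0.28 ± 0.08).

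Over all genes tested, 29.2% fell and 29.3% rose with Vps15 loss in basal medium, beside which the next 3 lists are set. Of 9 receptor and uptake genes, 5 fell and 3 rose. Itga11, an integrin that binds fibrillar collagen, was at -1.15 ± 0.14. Of 14 laminins and other basement membrane partners of type IV, 7 fell and 5 rose. Among those that fell, Lama2 was at -1.19 ± 0.13 and Hspg2 (perlecan) at -1.03 ± 0.11. Of 15 ligands, receptors, SMADs and regulators of TGF-beta, a main inducer of fibrillar collagen, 8 fell and 4 rose. The 4 with the smallest p were all among those that fell. They were Tgfb3 (-0.95 ± 0.08), Ski (-0.61 ± 0.06), Ltbp1 (-0.60 ± 0.06) and Tgfbr2 (-0.63 ± 0.07). The part of this list in the collagen falls was not tested.

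With EBSS in WT cells, where 31.4% of all genes rose and 31.3% fell, 6 of 11 genes for procollagen export rose and 1 fell. Sec24d (1.39 ± 0.12) and Sec23a (0.71 ± 0.11), of the inner COPII coat, and Mia2 (1.25 ± 0.07), of the exit site receptor for large cargo, were among those that rose. In Vps15KO cells, where 25.9% of all genes rose and 26.1% fell, 5 rose and none fell. Of the 18 chain modification genes, 8 were lower and 3 higher in WT, and 6 were lower and none higher in Vps15KO. Ppib (-0.36 ± 0.07) and Serpinh1 (-0.41 ± 0.08), the collagen chaperone HSP47, fell in WT, and the lysyl hydroxylase Plod2 rose (0.50 ± 0.12). Of the TGF-beta list 12 rose and 3 fell in WT, including Smad3 (1.27 ± 0.07) and its antagonist Skil (1.60 ± 0.09), and 9 rose and 2 fell in Vps15KO.

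Markers of other contractile and immune cells moved with genotype. Summed smooth muscle markers ran from 23036 to 30554 in WT basal and 9880 to 12033 in Vps15KO basal, almost all of it Acta2, the actin of activated fibroblasts (25766 and 10842 on average). The macrophage list rose from 865 to 894 in WT basal to between 2918 and 3798 in Vps15KO basal. This was Cd68, a lysosomal membrane protein, at 874 and 3449 on average, while Ptprc and Adgre1 stayed below 1 in every group mean. The part of these genes in the collagen falls was not tested.

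Several collagen genes lie in pairs on the chromosome. Col3a1 and Col5a2 lie tail to tail 24625 bases apart on chromosome 1, and both fell. Col4a1 and Col4a2 lie head to head on chromosome 8 (chr8:11198423-11312889 and chr8:11312805-11449287, RefSeq GRCm38.p6), with starts that overlap, and their log2 differences had the same sign and similar size in all 4 comparisons. Col6a2 and Col6a1 lie 85162 bases apart on chromosome 10. Col4a6 lies 1275 bases from Col4a5 on the X chromosome and had almost no reads. Exons of Col9a3 share 6.07% of their bases with Tcfl5 on the opposite strand and those of Col4a3 share 5.65% with C430014B12Rik, and since strand use in counting is not given, reads of these pairs are uncertain.

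Upstream sequence is shown for 2 of the fibrillar genes that fell, from the RefSeq promoter windows (GRCm38.p6). Only stretches free of annotated exons are printed, so that of Col1a2 ends 126 bases before the start site and that of Col3a1 runs up to it. Capitals mark matches of letters on either strand, at any distance from the start site. The letters are TATAAA (those of the TATA box), GGGCGG (the GC box bound by Sp1) and CAGACA (a core of SMAD binding elements). On the other strand CAGACA reads TGTCTG.
Col1a2, chr6:4505370-4505492, plus strand: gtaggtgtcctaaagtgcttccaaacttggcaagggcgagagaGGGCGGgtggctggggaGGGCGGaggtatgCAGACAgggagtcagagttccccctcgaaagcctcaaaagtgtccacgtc
Col3a1, chr1:45311388-45311537, plus strand: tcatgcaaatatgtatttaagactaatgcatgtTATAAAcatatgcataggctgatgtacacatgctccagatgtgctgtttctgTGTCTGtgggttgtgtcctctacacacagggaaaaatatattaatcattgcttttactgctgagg

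Promoter windows were matched for 26 of the 33 tested chains (28 windows). GGGCGG occurred in 64.3% of them and in 35.7% of all 32851 windows. The 28 windows belong to chains that passed the filter, while the 32851 were not filtered by expression. The sets are therefore unlike, and whether the gap is particular to collagens was not tested. TATAAA occurred in 14.3% and 13.6%, CCAAT (the CCAAT box) in 39.3% and 37.4%, and CAGACA in 8 of the 28 and 6913 of the 32851. Of the 7 fibrillar windows, 3 held CAGACA, among them those of Col1a2 and Col3a1. The windows of Col11a1 and Col27a1, which also fell, did not hold it. A match describes the letters only, and no binding was measured.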

How the data were processed

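Gene expression was measured in 12 libraries of mouse embryonic fibroblasts, 3 per group. The authors deposited 1 table of log2 values, variance-stabilized counts per gene. Per the submitters' processing notes, the build was mm10 and the tools included limma, DESeq2, featureCounts and STAR 2.7.10b. What each did, the gene annotation and the use of strand in counting are not given in the sources used here.

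Read counts were worked back from the deposited log2 values by inverting the transformation with the table's lowest value as its floor. This gave whole numbers (within 0.001) for 100% of values. Normalized counts are these reads divided by each library's size factor. The main test was limma 3.58.1 (R 4.3.3) on the deposited log2 values, with 1 mean per group, a variance trend, 8 residual degrees of freedom and Benjamini-Hochberg adjustment over 14279 genes. A gene was tested if its mean exceeded the floor by 1 or more, and called at adjusted p under 0.05. Alternatives changed the filter, scaling, variance model, threshold, scale and libraries used, removed length and GC trends, or added the replicate number. The procedure was tested on simulated data. The collagens, classes, pathway lists and markers were chosen with earlier results of these data known. Values in every library are given for the most abundant chains of each class and for the 5 largest rises and falls in a comparison, and of each pathway list at most 4 genes with the smallest p are named.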

Additional observations from a re-analysis of the deposited data

Results flagged for a closer look

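For 5 collagens the EBSS effect differed between genotypes by the test of the difference itself (limma, Benjamini-Hochberg adjusted over all genes), given here as Vps15KO minus WT on the log2 scale. The difference was 0.66 for Col9a3, 0.46 for Col7a1, 0.34 for Col12a1, 0.32 for Col6a3 and -0.30 for Col20a1. Over the alternatives the adjusted p ran from 0.0020 to 0.17 for Col9a3, 0.015 to 0.085 for Col7a1, 0.0018 to 0.13 for Col12a1, 0.0078 to 0.12 for Col6a3 and 0.012 to 0.10 for Col20a1. The sign was the same in every alternative that tested each gene, and Col9a3 rests on few reads, with a mean of 13.2 normalized counts in WT basal.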

How the results depend on the processing

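The counts of chains lower in Vps15KO stayed at 18 to 20 in basal medium and 19 to 20 in EBSS when each library was left out in turn. In the same 12 fits, chains higher in Vps15KO ran from 3 to 5 (basal) and 4 to 6 (EBSS). With EBSS, 8 to 10 chains were higher and 5 to 8 lower in WT, and 8 to 12 higher and 1 to 3 lower in Vps15KO. The WT count of 8 lower came without WT basal replicate 2, the Vps15KO count of 1 without Vps15KO basal replicate 1, and the basal count of 3 higher without WT basal replicate 1 or 2 or Vps15KO basal replicate 3. The difference of the EBSS effect gave 0 to 4 higher and 0 to 1 lower. Left without a filter, it gave 0 and 0 (at an unadjusted p under 0.05, 4 higher and 2 lower in the main test), and chains higher in Vps15KO basal numbered 3. With the filter at 3 above the floor, higher chains numbered 5 (EBSS in WT), 7 (EBSS in Vps15KO), 3 and 3 (Vps15KO in basal medium and in EBSS). Fewer genes were tested there, and Col10a1 (EBSS in WT) and Col4a5 (EBSS in Vps15KO) were tested but lost their calls. Equal medians gave 3 higher in Vps15KO basal. For the difference, no variance trend gave 2 higher and 0 lower, and library weights gave 2 lower and 1805 genes lower over all genes, against 1177. At adjusted p under 0.01, higher chains numbered 7 (EBSS in Vps15KO), 3 and 3 (Vps15KO in each medium), and the difference 0 and 0, with 707 and 520 of all genes. Without both WT libraries that stood apart, EBSS in WT gave 2 lower, Vps15KO basal 3 higher and the difference 0 lower. With length and GC trends removed, EBSS gave 10 lower in WT, 5 higher and 7 lower in Vps15KO, and the difference 0 higher and 2 lower. The signs of Col5a2 in WT (0.04 to -0.19) and of Col12a1 in Vps15KO (0.21 to -0.050) turned. The causes of these changes were not tested. With the replicate number as a replicate block the difference gave 0 lower, and Col17a1 (EBSS in Vps15KO), Col25a1 (Vps15KO in EBSS) and Col20a1 (difference) changed their calls. Whether the numbers pair the libraries is not known. Deviations of same-numbered WT and Vps15KO libraries correlated at 0.090, 0.26 and 0.083 in basal medium and 0.12, 0.039 and 0.12 in EBSS. Those of different-numbered WT and Vps15KO libraries ran from -0.21 to 0.11 in basal medium and from -0.11 to -0.012 in EBSS.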
